A study of Schizosaccharomyces pombe with 30 samples.

Results

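The genes described here encode proteins of the mitochondrial ribosome of fission yeast, Schizosaccharomyces pombe. They were chosen by name: a gene was taken where its symbol in the RefSeq annotation of its systematic identifier is mrpl or mrps followed by a number. This gave 39 of the 5084 genes on the array, 31 mrpl genes of the large subunit and 8 mrps genes of the small subunit. Other mitochondrial ribosomal proteins have symbols of another form and are described below only as a list for comparison. The 39 genes have 75 of the 14556 features of the array, namely 39 exon, 18 intron and 18 junction features, and 12 of the genes have introns on the array. A junction feature spans 2 joined exons.

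The study examined how H2A.Z, a variant of histone H2A that pht1 encodes, and the SWR1 complex that deposits it, whose catalytic subunit is swr1, bear on pre-mRNA splicing. RNA of mutant cells (Cy5) and of wild-type cells (Cy3) was hybridised together on 30 Agilent splicing arrays, in 10 groups of 3 arrays, without a dye swap and without wild-type arrays of their own. Cells grew at 30 °C, and some were then shifted to 37 °C for 2 hours or to 16 °C for 9 hours, the mutant and its wild type alike. The groups were swr1∆ prp16DAmP, swr1∆ and prp16DAmP at 37 °C, pht1∆ prp16DAmP, pht1∆ and prp16DAmP at 16 °C, and swr1∆, pht1∆ usp107DAmP, pht1∆ and usp107DAmP at 30 °C. The ∆ alleles are gene deletions, and a DAmP allele carries an insertion behind the coding region that is meant to reduce the mRNA. The prp16 product is a helicase of the spliceosome and usp107 encodes a protein of its U1 particle. The labels do not say whether the 3 arrays of a group come from separate cultures. The p-values rest only on the spread between arrays within groups, pooled over all 10 groups, and this spread may be technical.

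Mitochondrial ribosomes translate the few proteins that mitochondrial DNA encodes, which are mostly subunits of the respiratory chain and of ATP synthase. Apart from their RNA and a few proteins, they are built from proteins that nuclear genes encode, that cytosolic ribosomes make and that are imported into mitochondria. Many have counterparts in bacterial ribosomes, and their systematic names mark these with u (universal) or b (bacterial), while m marks proteins found only in mitochondria. Fission yeast needs respiration for normal growth more than budding yeast does. Among the 39 genes, mrps12 and mrpl28 are direct neighbours in the annotation and mrpl40 lies 2 genes beyond mrpl28. Of these, mrpl28 and mrpl40 were both lower on arrays labelled pht1∆ usp107DAmP (adjusted p under 0.05 in limma), as were 24.4% of all exon features. mrpl40 was also lower in swr1∆ at 30 °C, where 3.65% of all were, and mrps12 in pht1∆ at 16 °C, where 11.5% were. In limma without replicate 2 of the group, adjusted p rose to 0.293 for mrpl28, 0.343 for mrpl40 in swr1∆ and 0.0747 for mrps12.

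Introns of fission yeast are short, and the spliceosome reads 3 elements in them: the 5′ splice site, the branch site and the 3′ splice site. Of the 18 introns on the array, 17 in 11 genes could be placed by number in the RefSeq annotation of assembly ASM294v3, because the annotation has as many introns in the gene as the array does. mrps16 has 2 annotated introns and 1 on the array and was not placed. The 17 introns had a median length of 63 bases, from 39 to 271, against 56 bases over the 5064 annotated coding introns. The 10 introns below are among those named most in the splicing results, for their index, their junction or their splice sites. Each is given on the sense strand, credited to RefSeq (ASM294v3), with capitals marking the first 6 bases, a branch motif where one was found, and the last 3 bases. The search for a branch motif covered the sense strand of the last 30 bases. It looked for CTAAC and for its variant ending in T, which is CTAAT. It also looked for the forms with G in the middle, which are CTGAC when ending in C or CTGAT when ending in T. No motif had precedence, and the match nearest the 3′ end was marked.
mrpl44 intron 1 (chromosome II, plus strand): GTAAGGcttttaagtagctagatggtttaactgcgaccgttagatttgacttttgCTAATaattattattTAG
mrpl17 intron 1 (chromosome III, minus strand): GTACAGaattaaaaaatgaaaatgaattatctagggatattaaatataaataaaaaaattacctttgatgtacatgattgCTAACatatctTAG
mrpl17 intron 2 (chromosome III, minus strand): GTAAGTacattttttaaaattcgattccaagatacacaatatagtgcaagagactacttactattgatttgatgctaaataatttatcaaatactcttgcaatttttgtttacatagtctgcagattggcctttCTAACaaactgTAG
mrpl17 intron 3 (chromosome III, minus strand): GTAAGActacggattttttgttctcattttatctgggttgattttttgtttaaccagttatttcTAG
mrpl3 intron 1 (chromosome II, minus strand): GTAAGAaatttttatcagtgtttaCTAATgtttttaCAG
mrpl51 intron 1 (chromosome II, plus strand): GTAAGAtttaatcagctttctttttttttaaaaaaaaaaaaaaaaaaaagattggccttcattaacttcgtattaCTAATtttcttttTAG
mrpl51 intron 2 (chromosome II, plus strand): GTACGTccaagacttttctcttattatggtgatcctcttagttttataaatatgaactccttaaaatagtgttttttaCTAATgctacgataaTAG
mrpl38 intron 1 (chromosome II, plus strand): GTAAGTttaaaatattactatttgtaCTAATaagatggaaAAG
mrpl38 intron 2 (chromosome II, plus strand): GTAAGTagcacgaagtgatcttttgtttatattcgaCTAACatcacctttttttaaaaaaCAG
mrpl23 intron 1 (chromosome II, plus strand): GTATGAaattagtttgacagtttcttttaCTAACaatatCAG

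A branch motif stood in the window of 14 of the 17 placed introns (82.4%), and of 74.2% of all annotated introns. mrpl17 intron 3, mrpl27 intron 1 and mrpl39 intron 1 held none of the 4 motifs in that window. Both mrpl38 introns, mrpl17 intron 2 and mrpl39 intron 2 open with the commonest 5′ site, GTAAGT. That is 4 of the 17 placed introns (23.5%), beside 27.5% of all annotated introns. GTACAG of mrpl17 intron 1 opens 0.079% of them, GTAAGG of mrpl44 intron 1 opens 2.47% and GTATGA of mrpl23 intron 1 opens 4.9%. These letters describe the annotated introns and say nothing of how well they are spliced.

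The values are log ratios of mutant over wild type within each array, read as log2, since no source used here states the base. The SD over all features of an array ran from 0.131 to 0.464 and from 0.131 to 0.214 on the arrays of 37 °C. Within the groups, arrays correlated at r = 0.058 to 0.757 over all features, and 7 pairs of arrays from different groups correlated below −0.3, the lowest at −0.528. The labels state the same dyes for all arrays, so the direction was kept. The exon feature of pht1 was lower in pht1∆ at 16 °C (−0.75, −0.65 and −0.83) and at 30 °C (−1.08, −0.43 and −0.44), both called. On arrays labelled pht1∆ usp107DAmP (−0.07, 0.06 and 0.08) and pht1∆ prp16DAmP (−0.16, 0.12 and −0.06) it was not, which goes against those labels. The features of swr1, usp107 and prp16 were not called lower in the single mutants of these genes, at −0.19 for swr1 in swr1∆ at 37 °C and −0.11 in swr1∆ at 30 °C, −0.19 for prp16 in prp16DAmP at 37 °C and −0.15 at 16 °C, and −0.01 for usp107 in usp107DAmP. On arrays labelled swr1∆ prp16DAmP, swr1 stood at −0.11 and prp16 at −0.01, also not called. On arrays labelled pht1∆ prp16DAmP prp16 was at 0.49, 0.77 and −0.42 (mean 0.28), and usp107 had a mean of −0.11 on arrays labelled pht1∆ usp107DAmP, neither of them called. prp16 was called lower only on arrays labelled pht1∆ usp107DAmP, at 0.08, −0.41 and −1.20 (mean −0.51; adjusted p = 0.0395), and their label names no prp16 allele. Whether these features lie inside the altered stretch is not given, and every group other than pht1∆ is named below by its label alone.

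Each ratio compares 2 RNA pools, so fewer cells with a transcript and less of it per cell cannot be told apart. In the exon features, which report transcript level, the 39 genes were called lower 56 times and higher 15 times over the 10 groups. All exon features together were called lower 4930 times and higher 3015 times. A call is an adjusted p under 0.05 from limma, with Benjamini-Hochberg adjustment over all 5069 exon features. In all, 35 of the 39 genes were called in at least 1 group, 26 of them only lower, 4 only higher and 5 in both directions, while mrpl1, mrpl31, mrpl35 and mrps9 were called in none. Over all exon features, 76.7% were called in at least 1 group, 40.1% only lower, 25.3% only higher and 11.3% in both directions. Being called somewhere was thus common on this array. The mean over the 10 groups was negative in 31 of the 39 genes (79.5%) and in 61.7% of all exon features.

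**Figure D1:**
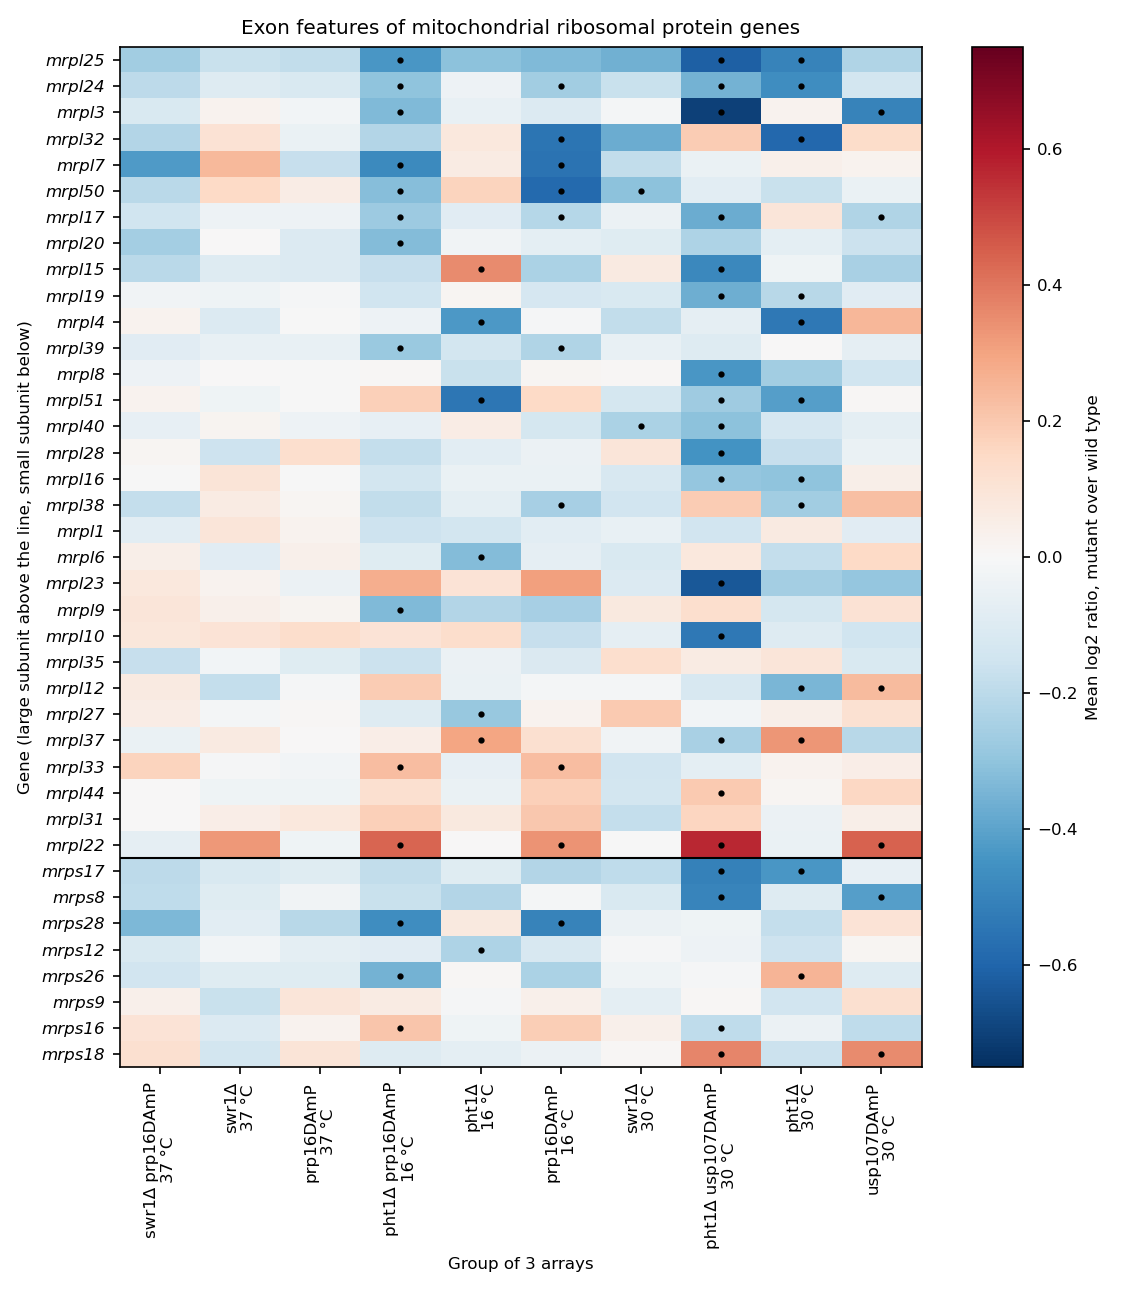
Mean log2 ratio of mutant over wild type of the exon feature of each gene (rows, large subunit above the line) in each group of 3 arrays (columns), with a dot where the feature was called. Most dots lie on blue cells, 56 against 15 on red, beside 4930 lower and 3015 higher calls over all exon features. mrpl25 is blue in all 10 columns, and the 3 columns of 37 °C hold no dot.

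On arrays labelled pht1∆ usp107DAmP at 30 °C, 17 of the 39 genes were called lower (43.6%), beside 24.4% of all exon features, and 3 were higher (7.69%), beside 18% of all. The median of the 39 was −0.12 and that of all exon features −0.03. mrpl3 encodes mL44, a large subunit protein with an RNase III-like fold. Its exon feature was at −0.68, −0.78 and −0.64 on the 3 arrays, 1.62-fold lower with a mean of −0.70 ± 0.08 (SD, n = 3; limma, adjusted p = 2.33e-06). All 3 arrays were low and close together. The junctions of mrpl3 were not called on these arrays, the first at −0.34 and the second at 0.01. mrpl23, whose product uL13m has a bacterial counterpart, stood at −0.59, −1.11 and −0.20, with a mean of −0.63 (adjusted p = 0.000121). The junction of mrpl23 was at −0.13 and not called. mrpl25, encoding the mitochondria-specific mL59, stood at −0.48, −1.03 and −0.32, with a mean of −0.61 (adjusted p = 0.000334). In both genes replicate 2 was far below the other arrays, a pattern that recurred in mrpl10, mrps17, mrpl15 and mrpl28. That array had the widest spread of the 30, with an SD of 0.464 over all features. mrpl10 (uL15m) was at −0.36, −1.20 and −0.05, mean −0.54.

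The small subunit showed the same spread on these arrays. mrps17, whose bacterial counterpart uS17 binds the small subunit RNA early in assembly, was at −0.35, −0.92 and −0.26, mean −0.51 (adjusted p = 0.000146). mrps8, whose bacterial counterpart uS8 is another early binding protein, was at −0.79, −0.61 and −0.07, mean −0.49 (adjusted p = 0.000384). Here replicate 3 lay close to 0, as it did for mrpl8 (bL17m; −0.61, −0.72 and 0.01, mean −0.44). mrpl15 (mL57) had a mean of −0.48 and mrpl28 (mL40) of −0.45. The other 8 genes called lower were mrpl17, mrpl19, mrpl24, mrpl40, mrpl16, mrpl51, mrpl37 and mrps16, with means between −0.37 and −0.19. Among the genes that were higher, mrpl22 encodes uL22m, whose bacterial counterpart lines the exit tunnel for the growing chain. It was at 0.25, 0.51 and 0.92, 1.48-fold higher with a mean of 0.56 ± 0.34 (SD, n = 3; adjusted p = 0.000126), and all 3 arrays lay above 0. mrps18 was at 0.15, 0.18 and 0.76 (mean 0.37), where replicate 3 alone was high, and mrpl44 at 0.26, 0.20 and 0.14 (mean 0.20).

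Of these 20 calls, 9 held whichever of the 3 arrays was left out, namely mrpl3, mrpl17, mrpl19, mrpl22, mrpl23, mrpl25, mrpl40, mrps8 and mrps17. The other 11 lost the call without at least 1 array, at adjusted p = 0.0506 to 0.293, and the number called was 10 without replicate 2, 16 without replicate 1 and 25 without replicate 3. A fit on these 3 arrays alone called none of the 39 genes and 29 of all exon features.

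In pht1∆ at 30 °C, 10 of the 39 genes were called lower (25.6%) and 2 higher (5.13%), beside 16.9% and 8.82% of all exon features. The median of the 39 was −0.13, against −0.03 over all exon features. mrpl32 encodes bL32m, a small zinc-binding protein in its budding yeast form, and was at −0.49, −0.95 and −0.33 (mean −0.59 ± 0.32, SD, n = 3; adjusted p = 0.00220). mrpl4 (uL29m), counterpart of a bacterial protein near the tunnel exit, was at −0.38, −0.62 and −0.60 (mean −0.53; adjusted p = 0.000332). mrpl25 stood at −0.17, −0.94 and −0.39 (mean −0.50) and mrpl24 (bL28m) at −0.30, −0.62 and −0.49 (mean −0.47). All 3 arrays were below 0 for each of the 10 genes, which also include mrps17 (mean −0.44), mrpl51 (−0.41), mrpl12 (−0.34), mrpl16 (−0.30), mrpl38 (−0.26) and mrpl19 (−0.21). mrpl12 encodes bL12m, the stalk protein that recruits translation factors in bacteria. The genes that were higher were mrpl37 (mL54; 0.47, 0.25 and 0.28, mean 0.33) and mrps26 (0.19, 0.43 and 0.14, mean 0.26).

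Leaving out 1 array kept the calls of mrpl24, mrpl51, mrps17 and mrpl4, while the other 8 lost theirs without at least 1 array (adjusted p = 0.0562 to 0.326). With these 3 arrays fitted alone, mrpl4 was the 1 gene of the 39 still called, and 253 of all exon features were.

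In usp107DAmP at 30 °C the calls were balanced, with 3 of the 39 genes lower and 3 higher (7.69% each), beside 11.9% and 8.62% of all exon features. mrpl3 was lower here too (−0.30, −0.75 and −0.45, mean −0.50; adjusted p = 0.000411), as was mrps8 (−0.44, −0.58 and −0.22, mean −0.41), followed by mrpl17 (mL46; −0.22, −0.13 and −0.31, mean −0.22). The junctions of mrpl3 were not called here, the first at −0.21 and the second at 0.13. mrpl22 was higher (0.21, 0.42 and 0.69, mean 0.44; adjusted p = 0.00327), as were mrps18 (0.44, 0.20 and 0.42, mean 0.35) and mrpl12 (0.26, 0.23 and 0.21, mean 0.23). The arrays of each of these 6 genes lay on 1 side of 0. Without any 1 array, mrpl3 and mrpl22 kept their calls. The count fell to 3 without replicate 1 or replicate 2, with the lost calls at adjusted p = 0.0588 to 0.167, and to 0 with these 3 arrays fitted alone.

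At 16 °C, arrays labelled pht1∆ prp16DAmP had 11 of the 39 genes lower (28.2%) and 3 higher (7.69%), beside 16.4% and 6.98% of all exon features. mrps28 encodes uS15m, whose bacterial counterpart joins the small subunit early, and was at −0.67, −0.39 and −0.34 (mean −0.47; adjusted p = 0.00383). mrpl7 (uL5m) was at −0.67, −0.38 and −0.37 (mean −0.47), mrpl25 at −0.35, −0.43 and −0.53 (mean −0.44) and mrps26 at −0.40, −0.37 and −0.29 (mean −0.35). mrpl3, mrpl9 (uL3m), mrpl20 (mL58) and mrpl50 had means between −0.33 and −0.32, and mrpl24, mrpl39 (bL33m) and mrpl17 between −0.30 and −0.27. mrpl22 was higher, at 0.60, 0.40 and 0.30 (mean 0.43; adjusted p = 0.00314), with mrpl33 (uL30m; mean 0.23) and mrps16 (mean 0.21). Without replicate 1, 1 of the 39 genes was called, against 6 without replicate 2 and 10 without replicate 3. Some values shrank without replicate 1, such as mrpl20 to −0.13 and mrpl9 to −0.21. Others lost the call without shrinking, such as mrpl25 at −0.48 and mrpl33 at 0.29. None of the 14 calls held without every array in turn, the lost ones standing at adjusted p = 0.0556 to 0.607.

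In pht1∆ at 16 °C, 5 of the 39 genes were lower (12.8%) and 2 higher (5.13%), beside 11.5% and 8.74% of all exon features. mrpl51 (mL43) was at −0.39, −0.68 and −0.55 (mean −0.54 ± 0.14, SD, n = 3; adjusted p = 1.87e-05), and it was the 1 call of the 7 that held without any 1 array. mrpl4 was at −0.66, −0.29 and −0.33 (mean −0.43) and mrpl6 (uL6m) at −0.14, −0.47 and −0.38 (mean −0.33). mrpl27 (mean −0.29) and mrps12 (mean −0.23) were lower as well, the second encoding uS12m, whose bacterial counterpart helps the small subunit read the codon. mrpl15 was higher (0.44, 0.60 and 0.03, mean 0.35), with replicate 3 near 0, and so was mrpl37 (0.40, 0.25 and 0.24, mean 0.30). The count was 3 without replicate 1 or replicate 2, with lost calls at adjusted p = 0.0579 to 0.295.

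In prp16DAmP at 16 °C, 8 genes were lower (20.5%) and 2 higher (5.13%), beside 11.9% and 5.43% of all exon features. mrpl50 was at −0.78, −0.58 and −0.39 (mean −0.58 ± 0.19, SD, n = 3; adjusted p = 0.000221). mrpl7 was at −0.73, −0.56 and −0.37 (mean −0.55), mrpl32 at −0.85, −0.37 and −0.42 (mean −0.55) and mrps28 at −0.75, −0.65 and −0.11 (mean −0.50). For each of these 4 genes replicate 1 was the lowest array. mrpl24, mrpl38, mrpl39 and mrpl17 followed at −0.26 to −0.21, and mrpl22 (0.30, 0.33 and 0.38, mean 0.34) and mrpl33 (mean 0.23) were higher. Without replicate 1 only mrpl50 was called, without replicate 2 the count was 4, and the lost calls stood at adjusted p = 0.0509 to 0.381. Arrays scaled to equal spread gave 5 calls, as did these 3 arrays fitted alone.

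In swr1∆ at 30 °C, 2 of the 39 genes were lower (5.13%) and 0 higher, beside 3.65% and 1.91% of all exon features. They were mrpl50 (−0.29, −0.42 and −0.21, mean −0.31; adjusted p = 0.0457) and mrpl40 (uL24m; −0.06, −0.38 and −0.27, mean −0.24; adjusted p = 0.0308). Neither was called without replicate 2, with these 3 arrays fitted alone, or with each array centred on its exon features.

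At 37 °C no gene of the 39 was called in swr1∆ prp16DAmP, swr1∆ or prp16DAmP. Of all exon features, 0.0197% were higher and 0.335% lower on arrays labelled swr1∆ prp16DAmP, 0.888% and 0.158% in swr1∆, and 0.0395% and 0.0789% in prp16DAmP. At an unadjusted p under 0.05, limma had 10, 3 and 0 of the 39 genes in these groups, beside 654, 568 and 278 of all 5069 exon features. The largest difference was mrpl7 on arrays labelled swr1∆ prp16DAmP, at −0.44, −0.50 and −0.34 (mean −0.43; adjusted p = 0.0732). In swr1∆ it was mrpl22, at 0.12, 0.50 and 0.36 (mean 0.32; adjusted p = 0.144), and in prp16DAmP it was mrps28, at −0.16, −0.26 and −0.20 (mean −0.21; adjusted p = 0.936). The fit shares 1 estimate of spread over all 30 arrays, while the arrays of 37 °C varied least. Scaled to equal spread, the arrays gave 1, 3 and 2 calls, and each group's 3 arrays fitted alone gave 0, 0 and 3.

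**Figure D2:**
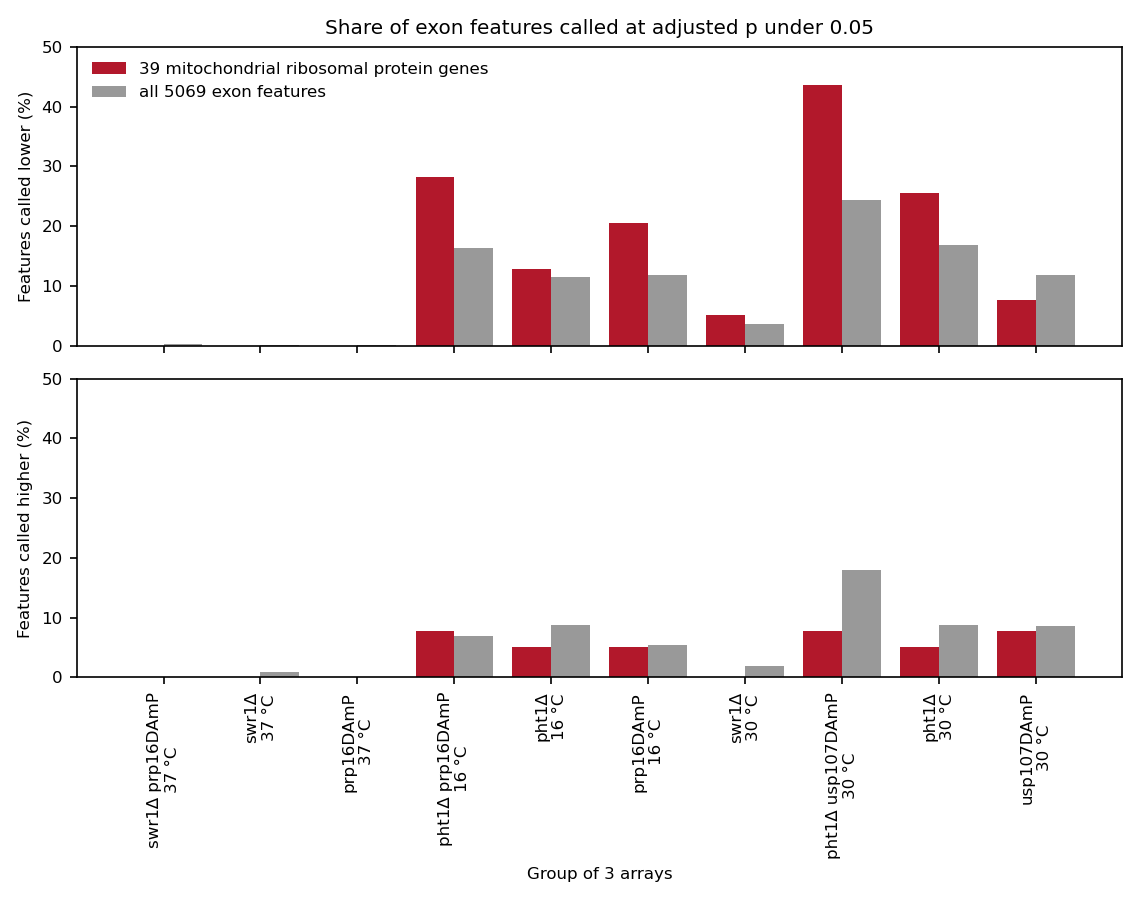
Percent of exon features called lower (upper panel) and higher (lower panel) in each group of 3 arrays, for the 39 genes (red) and for all 5069 exon features (grey). The red bar is the taller one for lower calls in 6 of the 10 groups, up to 43.6% beside 24.4% on arrays labelled pht1∆ usp107DAmP, and for higher calls in 1 of them.

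Some genes lay on 1 side of 0 on most arrays. Without a dye swap, a dye bias of a feature cannot be told apart from a change shared by the mutants. How many of all exon features kept 1 sign as often was not counted. mrpl25 had the lowest mean over the groups, −0.34, and was below 0 on all 30 arrays and called in 3 groups. mrpl24 (mean −0.21) was below 0 on 28 of 30 arrays and called lower in 4 groups, as mrpl17 was with a mean of −0.13. mrps17 (mean −0.21) was also below 0 on 28 of 30 arrays, and mrps8 (mean −0.18) was negative in all 10 groups, each with 2 calls. At the other end, mrpl22 (mean 0.19) was called higher in 4 groups: both groups labelled with usp107DAmP and both groups of 16 °C labelled with prp16DAmP. In pht1∆ at 16 °C it was at −0.11, 0.12 and −0.01, and in pht1∆ at 30 °C at 0.06, −0.15 and −0.05. The 4 calls of mrpl22 may not be independent of each other. Same-numbered arrays deviated together between the groups labelled with usp107DAmP (lowest r = 0.603) and between those of 16 °C labelled with prp16DAmP (0.179). mrpl31 (mL60) followed with a mean of 0.06 and no call. Calls in both directions were seen for mrpl12, mrpl15, mrpl37, mrps16 and mrps26. Calls in 4 or more groups were reached by 7.69% of the 39 genes and by 7.89% of all exon features.

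**Figure D3:**
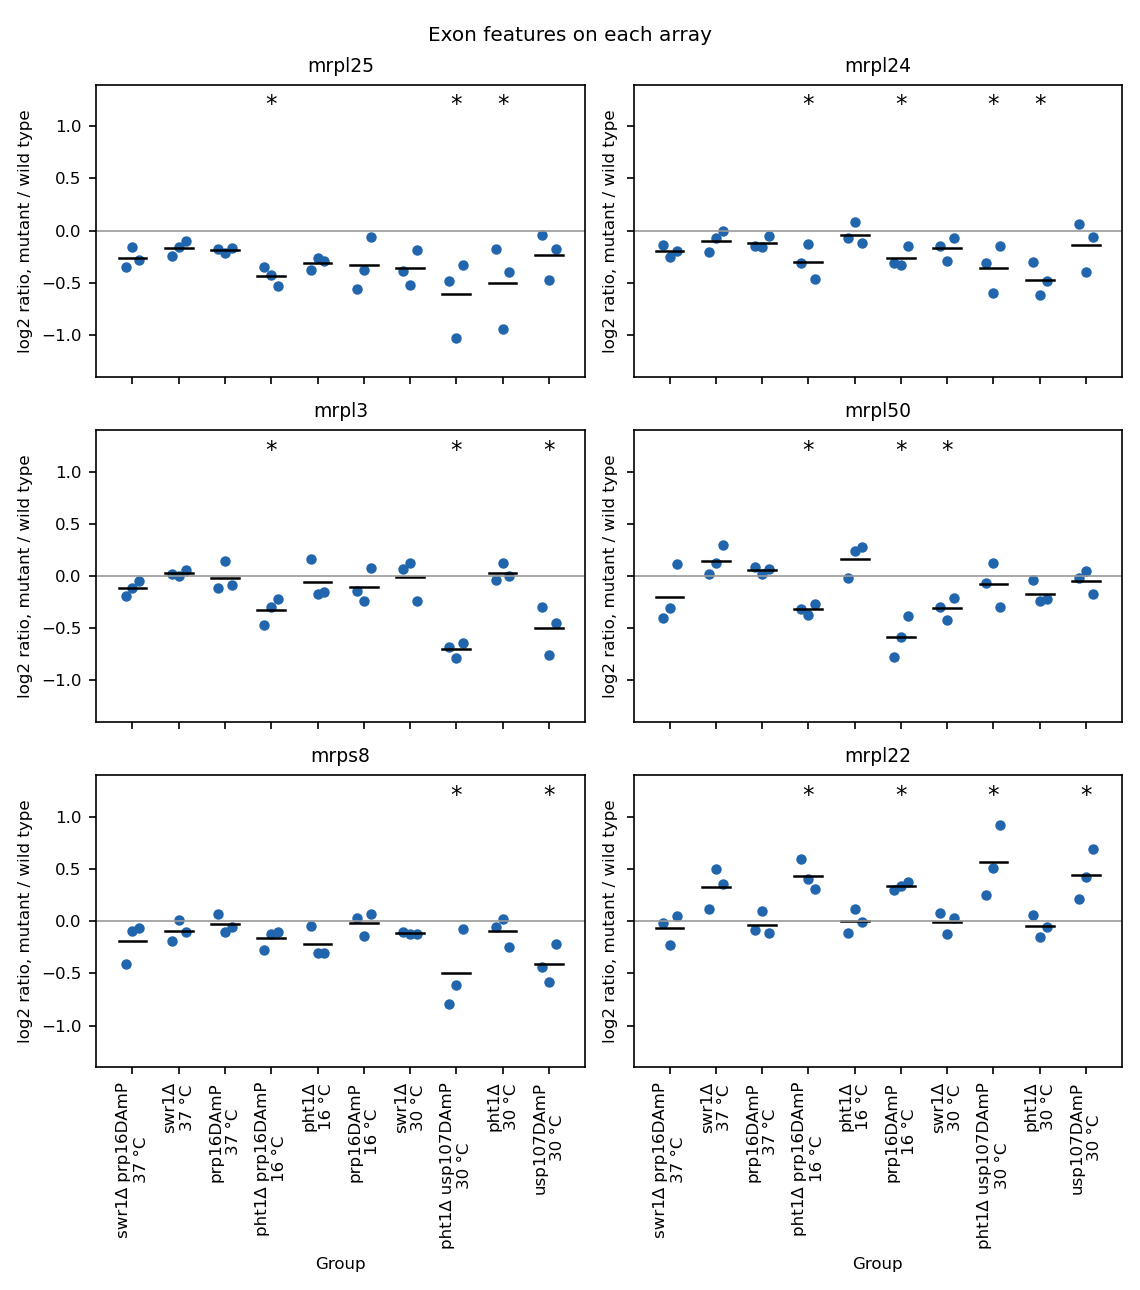
Log2 ratio of mutant over wild type of the exon feature of 6 genes on each of the 3 arrays of a group (points), with the mean (line) and an asterisk where the feature was called. All 30 points of mrpl25 lie below 0, mrpl3 is lowest on arrays labelled pht1∆ usp107DAmP with a mean of −0.70, and mrpl22 is highest there with 0.56.

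By subunit, 14 of 31 large subunit genes (45.2%) and 3 of 8 small subunit genes (37.5%) were lower on arrays labelled pht1∆ usp107DAmP, beside 24.4% of all exon features. In pht1∆ at 30 °C 9 of 31 (29%) and 1 of 8 (12.5%) were lower, beside 16.9% of all. No difference between the subunits was tested. Genes with introns on the array gave 6 of 12 lower on arrays labelled pht1∆ usp107DAmP, and genes without gave 11 of 27 (40.7%), where 26.7% and 22.5% of all such genes on the array were lower.

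The lists for comparison were read from the same fits. Among 35 other mitochondrial ribosomal protein genes on the array, 7 were lower and 6 higher on arrays labelled pht1∆ prp16DAmP (20% and 17.1%), 4 and 2 in pht1∆ at 16 °C (11.4% and 5.71%) and 3 and 5 in prp16DAmP at 16 °C (8.57% and 14.3%). At 30 °C, 12 were lower and 4 higher on arrays labelled pht1∆ usp107DAmP (34.3% and 11.4%), 7 and 1 in pht1∆ (20% and 2.86%), 2 and 5 in usp107DAmP (5.71% and 14.3%), and 0 and 0 in swr1∆ and in every group of 37 °C. Of all exon features, 16.4%, 11.5%, 11.9%, 24.4%, 16.9% and 11.9% were lower in the first 6 of these groups, in that order. In the same order, 6.98%, 8.74%, 5.43%, 18%, 8.82% and 8.62% of all exon features were higher. bot1, a component of the small subunit of the mitochondrial ribosome, was at −0.82 in pht1∆ at 16 °C, −0.77 on arrays labelled pht1∆ usp107DAmP and −0.93 in pht1∆ at 30 °C, all lower than any of the 39 genes there. Of 4 mitochondrial translation factor genes, 1 was lower and 1 higher in pht1∆ at 16 °C, 2 and 0 on arrays labelled pht1∆ usp107DAmP, and 2 and 1 in pht1∆ at 30 °C. mef1, a mitochondrial elongation factor gene, was at −0.54 in pht1∆ at 16 °C. Of 33 respiratory chain and ATP synthase genes, 17 were lower and 1 higher on arrays labelled pht1∆ usp107DAmP, led by atp16, encoding a subunit of ATP synthase (−1.19), and qcr7, encoding a subunit of the cytochrome bc1 complex (−1.01). The counts lower and higher were 11 and 1 on arrays labelled pht1∆ prp16DAmP, 6 and 0 in pht1∆ at 16 °C and 13 and 1 in prp16DAmP at 16 °C. At 30 °C they were 9 and 0 in pht1∆, and 2 and 5 in usp107DAmP, where the list's median was 0.10.

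The cytosolic ribosome is read beside them. Of its 141 protein genes, 76 were lower on arrays labelled pht1∆ prp16DAmP (53.9%, beside 16.4% of all exon features), 2 in pht1∆ at 16 °C (1.42%, beside 11.5%) and 81 in prp16DAmP at 16 °C (57.4%, beside 11.9%). In swr1∆ at 30 °C 22 were lower (15.6%, beside 3.65%), and in pht1∆ at 30 °C 58 were (41.1%, beside 16.9%). Arrays labelled pht1∆ usp107DAmP had 36 lower (25.5%, beside 24.4%) and 12 higher (8.51%, beside 18%). usp107DAmP had 12 lower (8.51%, beside 11.9%) and 24 higher (17%, beside 8.62%). For the 39 mitochondrial genes the shares lower were 28.2%, 12.8%, 20.5%, 5.13% and 25.6% in the first 5 of these groups. No test of the difference between the lists was made, and the groups each have 3 arrays.

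For splicing, each intron feature was set against the exon feature of its gene. This splicing index, a difference of 2 log2 ratios, is positive where the intron feature is higher, relative to wild type, than the exon feature, which both intron retention and a lower exon feature give. Over the 10 groups, 22 indices of the 39 genes were called higher and 3 lower, in 14 of the 18 introns and 9 of the 12 genes. The exon feature was itself called in 18 of these 25, the intron feature in 4, both in 1 and neither in 4. In 8 of the 25 the larger move was that of the intron. Neither these splits nor the introns called in at least 1 group were counted over all introns. Higher calls outnumbered lower ones over all 4817 introns too. They stood at 1211 against 264 on arrays labelled pht1∆ usp107DAmP, and at 1053 against 187 in pht1∆ at 16 °C.

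Arrays labelled pht1∆ usp107DAmP had 8 of 18 introns higher and 0 lower, beside 25.1% and 5.48% of all 4817 introns. In pht1∆ at 16 °C 4 were higher and 0 lower, beside 21.9% and 3.88%, and in pht1∆ at 30 °C 3 and 0, beside 14.1% and 3.63%. Arrays labelled pht1∆ prp16DAmP had 1 higher and 0 lower, beside 14.5% and 3.11%, and prp16DAmP at 16 °C 2 and 1, beside 14.2% and 3.49%. usp107DAmP had 3 higher and 2 lower, beside 11.6% and 2.68%, and swr1∆ at 30 °C 1 and 0, beside 4.57% and 1.74%. At 37 °C there were no calls among the 18 introns, beside 0.166% and 0.0415% on arrays labelled swr1∆ prp16DAmP, 0% and 0% in swr1∆, and 0.0415% and 0.0208% in prp16DAmP. At an unadjusted p under 0.05 limma had 0 of the 18 in each as well, beside 698, 459 and 250 of all 4817 introns. Each of the 3 groups' arrays fitted alone called 0, 1 and 0.

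The intron features on their own, tested against 0, were called 15 times among the 18, 13 times higher and 2 times lower. The counts were 1 on arrays labelled pht1∆ prp16DAmP (beside 4.01% of all 4836 intron features), 3 in pht1∆ at 16 °C (26.6%) and 2 in prp16DAmP at 16 °C (7.22%). At 30 °C there were 3 in swr1∆ (6.76%), 2 on arrays labelled pht1∆ usp107DAmP (11.2%), 3 in pht1∆ (12.6%) and 1 in usp107DAmP (5.21%). At 37 °C there were 0, beside 0.393% on arrays labelled swr1∆ prp16DAmP, 0% in swr1∆ and 0.0207% in prp16DAmP. At an unadjusted p under 0.05 limma had 1, 1 and 0 of the 18 there, beside 593, 420 and 143 of all 4836. The mrpl44 intron was called in 4 groups and mrpl17 intron 3 in 3. The mrps16 intron was called in 2, and mrpl3 intron 2 and the introns of mrpl27, mrpl8, mrpl33, mrpl23 and mrpl12 in 1 each. The calls of mrpl44 in pht1∆ at 16 °C and of mrpl17 intron 3 in swr1∆ at 30 °C held without any 1 array, and the other 13 did not.

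The mrpl44 intron, which opens with GTAAGG, had an index made mostly by its intron feature. mrpl44 encodes mL53, a mitochondria-specific protein of the large subunit. In pht1∆ at 16 °C its index was 0.49, 0.66 and 0.69 on the 3 arrays, 1.53-fold higher with a mean of 0.61 ± 0.11 (SD, n = 3; adjusted p = 6.94e-05). The intron feature rose (0.40, 0.63 and 0.66, mean 0.56; adjusted p = 2.08e-05), the junction of exons 1 and 2 fell (−1.44, −0.24 and −0.41, mean −0.70; adjusted p = 0.000277), and the exon feature was at −0.05. The 3 features thus moved apart, and the calls of the index and of the junction held without any 1 array. In pht1∆ at 30 °C the junction fell as far (−0.70, −0.68 and −0.60, mean −0.66) while the intron feature was at −0.12 and not called. In swr1∆ at 30 °C the junction fell (−0.66, −0.42 and −0.71, mean −0.60) and the intron feature fell with it (−0.54, −0.46 and −0.07, mean −0.36). Without replicate 1 the junction call there was lost (adjusted p = 0.0833), and the intron call was lost without replicate 1 or replicate 2. The intron feature was also called higher on arrays labelled pht1∆ usp107DAmP (0.44, 0.36 and 0.19, mean 0.33) and in usp107DAmP (0.57, 0.63 and 0.10, mean 0.43), each lost without replicate 1 or replicate 2.

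The index of mrpl17 intron 3, one of the 3 placed introns without a branch motif in the window, was called higher in 3 groups. Of the other two, mrpl27 intron 1 had its index called lower in usp107DAmP and mrpl39 intron 1 had no index call. mrpl17 encodes mL46. In swr1∆ at 30 °C its index was 0.65, 0.68 and 0.37 (mean 0.57; adjusted p = 0.00407), and the intron feature was at 0.60, 0.75 and 0.21 (mean 0.52; adjusted p = 0.000396). In pht1∆ at 16 °C the index was 0.41, 0.11 and 0.70 (mean 0.41) with the intron feature at 0.32. On arrays labelled pht1∆ usp107DAmP it was 0.71, 0.57 and 0.44 (mean 0.58; adjusted p = 0.00052), where the exon feature had fallen to −0.37 and the intron feature was at 0.21 and not called. The index of this intron was positive in all 10 groups. The index calls in swr1∆ at 30 °C and in pht1∆ at 16 °C were each lost without either of 2 arrays, at adjusted p = 0.0591 to 0.212.

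mrpl3, mrpl51 and the first 2 introns of mrpl17 showed the other form, a higher index beside a lower exon feature. Intron 1 of mrpl3 on arrays labelled pht1∆ usp107DAmP had an index of 0.64, 0.89 and 0.90 (mean 0.81, 1.75-fold; adjusted p = 2.41e-05), with the intron feature at 0.11 and the exon feature at −0.70. Its intron 2 had a mean of 0.50 there, which turned to −0.0332 (adjusted p = 0.841) when the mean of the gene's junction features replaced the exon feature. In usp107DAmP introns 1 and 2 had means of 0.53 and 0.56. For mrpl51 in pht1∆ at 16 °C, introns 1 and 2 had means of 0.43 and 0.49, the second at 0.50, 0.47 and 0.50, the exon feature at −0.54, and the intron features at −0.10 and −0.05. The junction of exons 2 and 3 of mrpl51 fell with the exon feature, at −0.46, −0.39 and −0.57 (mean −0.47; adjusted p = 8.33e-05). In pht1∆ at 30 °C these indices were 0.44 and 0.33. mrpl17 introns 1 and 2 had means of 0.42 and 0.41 on arrays labelled pht1∆ usp107DAmP, and intron 1 of 0.34 on arrays labelled pht1∆ prp16DAmP. When the mean of the gene's junction features replaced the exon feature, 6 of the 25 index calls were kept, those of mrpl44, mrpl51 intron 2 and mrpl17 intron 3 in pht1∆ at 16 °C among them.

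**Figure D4:**
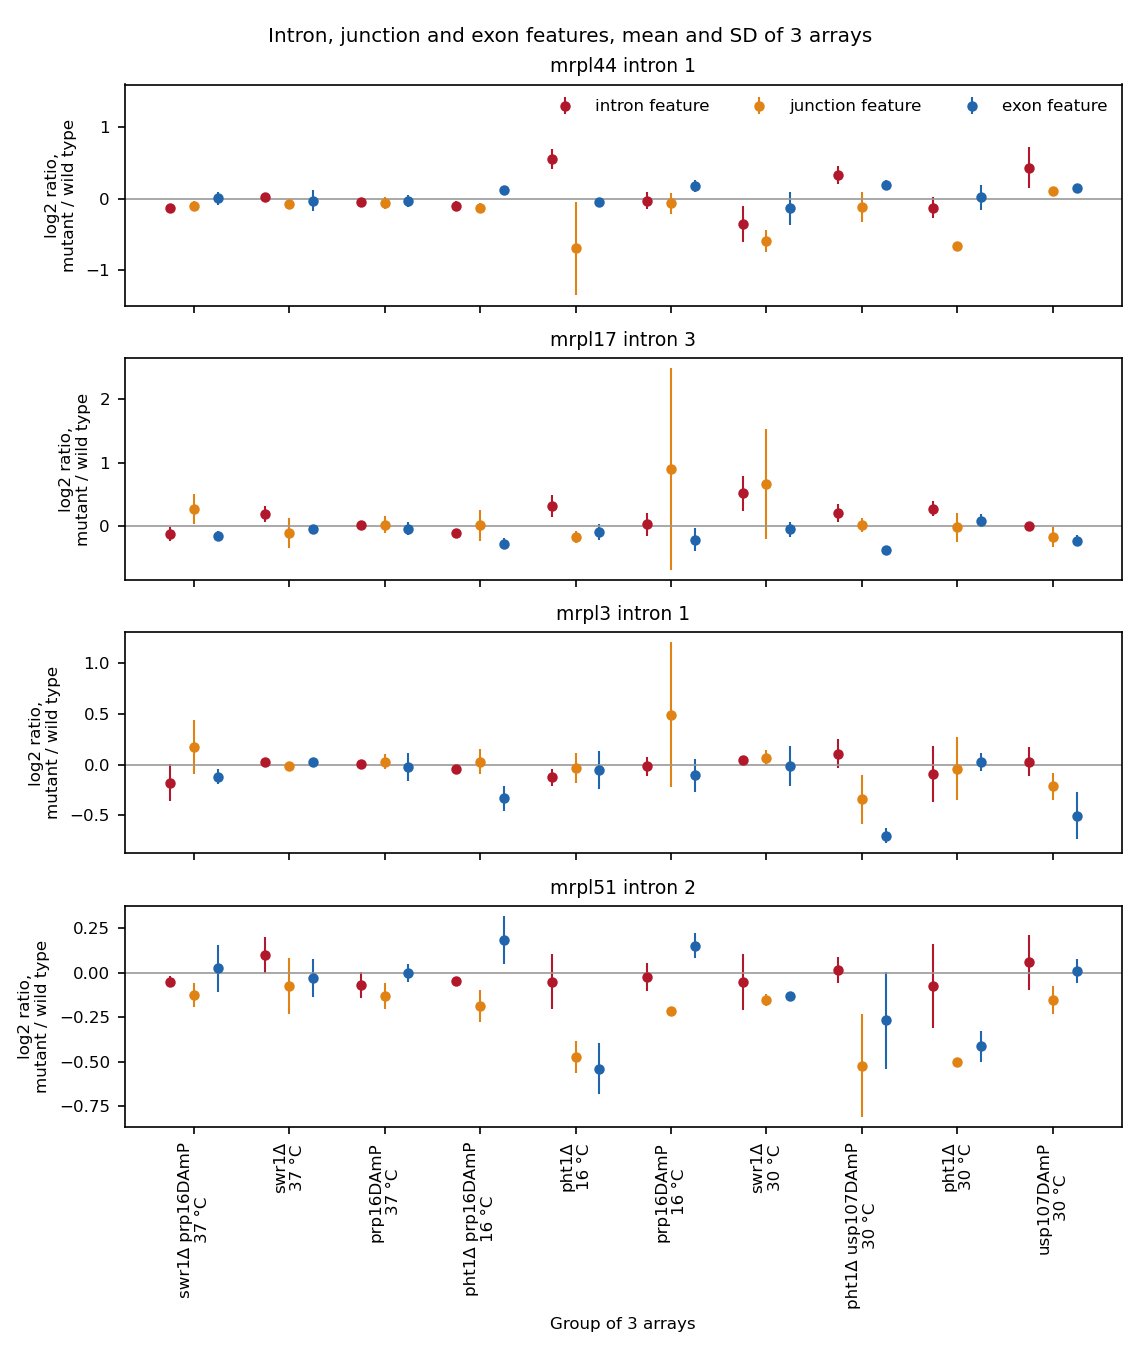
Log2 ratio of mutant over wild type of the intron feature (red), the junction feature (orange) and the exon feature (blue) for 4 introns, as mean and SD of the 3 arrays of each group, each panel on its own scale. For mrpl44 in pht1∆ at 16 °C the intron feature is at 0.56 and the junction at −0.70, while for mrpl3 on arrays labelled pht1∆ usp107DAmP the exon feature is at −0.70 and the intron feature at 0.11.

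The remaining calls belonged to mrps16, mrpl38, mrpl8, mrpl23, mrpl27 and mrpl51. The mrps16 intron on arrays labelled pht1∆ usp107DAmP had an index of 0.77, 0.60 and 0.13 (mean 0.50; adjusted p = 0.00113), with the intron feature called at 0.30 and the exon feature called at −0.19. mrpl38 intron 1 was called in 3 groups in both directions: 0.50 in pht1∆ at 30 °C, 0.42 in prp16DAmP at 16 °C and −0.55 in usp107DAmP (−0.34, −0.42 and −0.90). In pht1∆ at 30 °C the exon feature of mrpl38 was called lower (−0.26) and its first junction higher (0.53). The intron feature was not called there (0.24). The first junction was called higher in usp107DAmP too (0.48), and not in prp16DAmP at 16 °C (0.14). mrpl38 intron 2 was at 0.39 in prp16DAmP at 16 °C. mrpl8 was at 0.46 on arrays labelled pht1∆ usp107DAmP and 0.53 in usp107DAmP (0.46, 1.18 and −0.04), mrpl23 at 0.53 on arrays labelled pht1∆ usp107DAmP (0.50, 1.12 and −0.02), and mrpl27 at −0.46 in usp107DAmP (adjusted p = 0.04995). In usp107DAmP for mrpl8, and for mrpl23, the arrays lay on both sides of 0. mrpl51 intron 1 was at −0.38 in prp16DAmP at 16 °C.

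Of the 25 index calls, 7 held without any 1 array: mrpl3 introns 1 and 2, mrpl17 introns 2 and 3 and mrps16 on arrays labelled pht1∆ usp107DAmP, and mrpl44 and mrpl51 intron 2 in pht1∆ at 16 °C. Repeated values also touched some intron features. On pht1∆ at 30 °C replicate 1, 32.8% of intron features had a value shared with another, among them 7 of the 18 (both of mrpl51, mrpl3 intron 1, mrpl39 intron 2, mrpl38 intron 1, mrpl17 intron 2 and mrpl12). Without that replicate, 2 of the 3 index calls of the group remained. On swr1∆ at 30 °C replicate 1 it was 19.3% and 4 of the 18. mrpl17 intron 3 and mrpl44 were not among these.

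Junction features were called in either direction for 8 of 18 on arrays labelled pht1∆ usp107DAmP (38.6% of all 4651), 5 in pht1∆ at 16 °C (17.2%) and 6 in pht1∆ at 30 °C (22.4%). There was 1 on arrays labelled pht1∆ prp16DAmP (15.4%), with 3 in prp16DAmP at 16 °C (13.8%), 2 in swr1∆ at 30 °C (3.57%) and 1 in usp107DAmP (12.3%). At 37 °C there were 0, beside 0.194% on arrays labelled swr1∆ prp16DAmP, 0.0645% in swr1∆ and 0% in prp16DAmP. At an unadjusted p under 0.05 limma had 1, 0 and 1 of the 18 there, beside 557, 289 and 191 of all 4651. The junction of exons 1 and 2 of mrpl38, joined across the intron that opens with GTAAGT, was higher in 5 groups and positive in all 10. It was at 1.06, 0.51 and 0.84 in pht1∆ at 16 °C (mean 0.80, 1.74-fold; adjusted p = 7.66e-05) and at 0.57, 0.98 and 0.69 in swr1∆ at 30 °C (mean 0.74; adjusted p = 0.000845). In pht1∆ at 30 °C it was at 0.19, 0.79 and 0.59 (mean 0.53), and the call was lost without replicate 2. On arrays labelled pht1∆ usp107DAmP (0.69, 0.51 and −0.11, mean 0.36) and in usp107DAmP (0.70, 0.71 and 0.04, mean 0.48), replicate 3 lay near 0 and the call was lost without replicate 1 or replicate 2. The second junction of the same gene was lower in pht1∆ at 30 °C (−0.57, −0.25 and −0.23, mean −0.35).

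mrpl39, encoding bL33m, had lower junctions without an index call. Its junction of exons 2 and 3 was lower in 4 groups, at −0.46 in pht1∆ at 16 °C, −0.51 in prp16DAmP at 16 °C (−0.57, −0.40 and −0.55; adjusted p = 0.000741), −0.40 on arrays labelled pht1∆ usp107DAmP and −0.33 in pht1∆ at 30 °C. The calls on arrays labelled pht1∆ usp107DAmP and in pht1∆ at 30 °C were each lost without 1 array: without replicate 2 the value of the first was −0.19 (adjusted p = 0.125), and without replicate 3 that of the second was −0.30 (adjusted p = 0.0669). The junction of exons 1 and 2 was at −0.40 in pht1∆ at 16 °C and −0.33 in pht1∆ at 30 °C. It was not called at 16 °C without replicate 1 (adjusted p = 0.0553), nor at 30 °C without replicate 1 or replicate 3 (adjusted p = 0.0840 and 0.140). The junction of exons 2 and 3 of mrpl51 was lower in 3 groups, at −0.47 in pht1∆ at 16 °C, −0.52 on arrays labelled pht1∆ usp107DAmP and −0.50 in pht1∆ at 30 °C, and negative in all 10. Single arrays carried 2 calls in prp16DAmP at 16 °C: the last junction of mrpl17 was at −0.22, 0.22 and 2.71 (mean 0.90) and the first of mrpl3 at 0.05, 0.10 and 1.32 (mean 0.49). Without replicate 3 their adjusted p-values were 0.998 for mrpl17 and 0.774 for mrpl3. The other called junctions were those of mrpl27, mrpl8, mrpl51 (exons 1 and 2) and mrpl17 (2 junctions) on arrays labelled pht1∆ usp107DAmP and of mrpl3 on arrays labelled pht1∆ prp16DAmP, between −0.40 and 0.31.

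**Figure D5:**
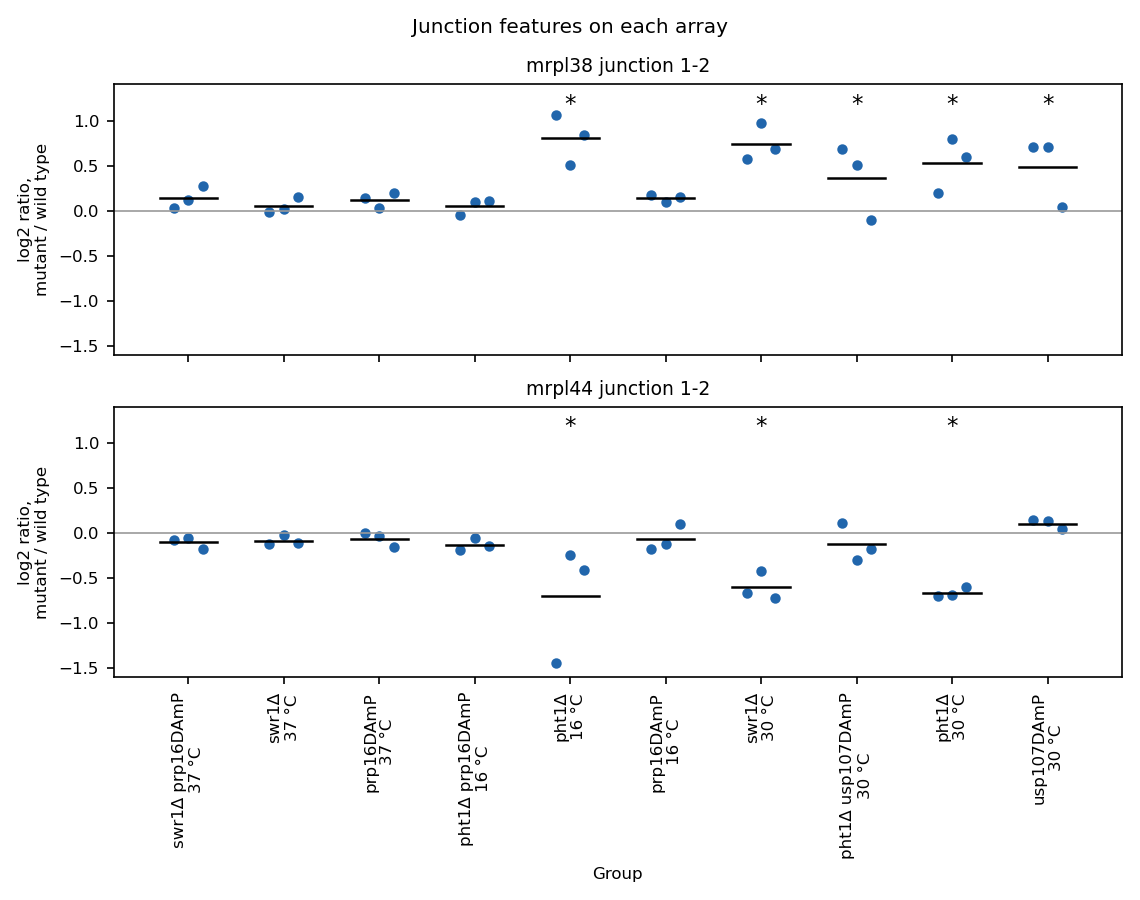
Log2 ratio of mutant over wild type of the first junction of mrpl38 (upper panel) and of mrpl44 (lower panel) on each of the 3 arrays of a group (points), with the mean (line) and an asterisk where the feature was called. The mrpl38 junction reaches a mean of 0.80 in pht1∆ at 16 °C, and the mrpl44 junction is called at −0.70, −0.60 and −0.66 in pht1∆ at 16 °C, swr1∆ at 30 °C and pht1∆ at 30 °C.

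Differences between groups were tested in the same fits as 7 contrasts. For exon features, pht1∆ at 16 °C against pht1∆ at 30 °C gave 2 of the 39 genes, beside 7.93% of all exon features. mrpl32 averaged 0.08 at 16 °C and −0.59 at 30 °C, a difference of 0.67 (adjusted p = 0.0289), and mrpl24 averaged −0.04 at 16 °C and −0.47 at 30 °C, a difference of 0.43 (adjusted p = 0.0280). The prp16DAmP groups differed in 1 gene, beside 2.07% of all: mrpl50 averaged 0.06 at 37 °C and −0.58 at 16 °C, a difference of 0.64 (adjusted p = 0.0117). swr1∆ at 37 °C against 30 °C gave 0 (1.46% of all), with 5 at an unadjusted p under 0.05 in limma. swr1∆ against pht1∆ at 30 °C gave 0 (2.37%), with 6. Of all 5069 exon features, 755 and 742 passed that unadjusted threshold in these 2 contrasts. The largest difference between swr1∆ and pht1∆ was mrpl37, at −0.03 in swr1∆ and 0.33 in pht1∆ (−0.36; adjusted p = 0.0956). With the replicate number as a block, which pairs these arrays, mrpl37 was called (adjusted p = 0.0465). The largest in swr1∆ between temperatures was mrpl32, higher by 0.48 at 37 °C than at 30 °C (adjusted p = 0.224).

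Departures of the double mutants from the sum of their single mutants were tested next, for exon features first. Arrays labelled pht1∆ prp16DAmP gave 1 (2.56% of all exon features as well): mrpl51 averaged 0.18 there, against −0.54 in pht1∆ and 0.15 in prp16DAmP at 16 °C, a departure of 0.57 (adjusted p = 0.0241). Arrays labelled pht1∆ usp107DAmP gave 0 (1.03% of all), with 2 at an unadjusted p under 0.05 in limma. Arrays labelled swr1∆ prp16DAmP gave 0 (0.335%), with 3. Of all 5069 exon features, 698 and 499 passed that unadjusted threshold for these departures. mrpl3 stood at −0.70 on arrays labelled pht1∆ usp107DAmP, against 0.03 in pht1∆ and −0.50 in usp107DAmP. Because pht1 was not lower on arrays labelled pht1∆ prp16DAmP or pht1∆ usp107DAmP, these departures describe the labels. Each of the 4 exon calls between groups was lost without at least 1 array, at adjusted p = 0.0532 to 0.159.

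For the splicing index, 1 contrast was called among the 18 introns. mrpl44 averaged 0.61 in pht1∆ at 16 °C and −0.14 in pht1∆ at 30 °C, a difference of 0.75 (SE 0.15; adjusted p = 0.00162), beside 9.94% of all introns called. It held without any 1 of the 6 arrays and under each alternative setting. The other contrasts called 0 of the 18, beside 0.27% of all introns for swr1∆ against pht1∆ at 30 °C, 0.332% for swr1∆ at 37 °C against 30 °C, 1.29% for prp16DAmP at 37 °C against 16 °C, 2.28% for the departure of arrays labelled pht1∆ prp16DAmP, 0.291% for pht1∆ usp107DAmP and 0% for swr1∆ prp16DAmP. At an unadjusted p under 0.05 limma had 3, 1, 3, 3, 0 and 0 of the 18 in these, beside 500, 648, 703, 856, 479 and 376 of all 4817 introns. The nearest to a call was again mrpl44, on arrays labelled pht1∆ prp16DAmP, with a departure of −0.63 (adjusted p = 0.0558).

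The same contrasts were made for intron features. pht1∆ at 16 °C against pht1∆ at 30 °C gave 2 of the 18, beside 16.1% of all 4836 intron features. The mrpl44 intron averaged 0.56 at 16 °C and −0.12 at 30 °C, a difference of 0.69 (SE 0.13; adjusted p = 0.000473). The mrpl27 intron averaged −0.06 at 16 °C and 0.44 at 30 °C, a difference of −0.50 (adjusted p = 0.0321). Departures on arrays labelled pht1∆ prp16DAmP gave 1, beside 7.61%: the mrpl44 intron averaged −0.10 there (−0.15, −0.03 and −0.13), against 0.56 in pht1∆ and −0.03 in prp16DAmP at 16 °C, a departure of −0.64 (adjusted p = 0.0113). Both mrpl44 calls held without any 1 array and under each alternative setting, and that of mrpl27 was lost without any 1 of 5 arrays (adjusted p = 0.0531 to 0.211). The other contrasts gave 0, beside 0.0827% for swr1∆ against pht1∆ at 30 °C, 0.434% for swr1∆ at 37 °C against 30 °C, 0.579% for prp16DAmP at 37 °C against 16 °C, and 0.207% and 0% for the departures of arrays labelled pht1∆ usp107DAmP and swr1∆ prp16DAmP. At an unadjusted p under 0.05 limma had 3, 4, 2, 0 and 1 of the 18 in these, beside 560, 566, 416, 460 and 362 of all 4836.

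For junction features, departures on arrays labelled pht1∆ prp16DAmP gave 2 of the 18, beside 1.12% of all 4651. The junction of exons 2 and 3 of mrpl39 was at −0.06, −0.25 and −0.16 there (mean −0.16), against −0.46 in pht1∆ and −0.51 in prp16DAmP at 16 °C, a departure of 0.81 (adjusted p = 0.00772). The first junction of mrpl38 was at −0.05, 0.10 and 0.10 there (mean 0.05), against 0.80 in pht1∆ and 0.14 in prp16DAmP at 16 °C, a departure of −0.89 (adjusted p = 0.0457). The mrpl39 call held without any 1 of the 9 arrays. That of mrpl38 was lost without any 1 of 8 of them (adjusted p = 0.0712 to 0.168), with the replicate block and when arrays were scaled to equal spread. The remaining contrasts gave 0, beside 1.16% for swr1∆ against pht1∆ at 30 °C, 7.42% for pht1∆ at 16 °C against 30 °C, 0.731% for swr1∆ at 37 °C against 30 °C, 0.817% for prp16DAmP at 37 °C against 16 °C, and 0.559% and 0% for the departures of arrays labelled pht1∆ usp107DAmP and swr1∆ prp16DAmP. At an unadjusted p under 0.05 limma had 2, 1, 3, 2, 2 and 1 of the 18 in these, beside 583, 1082, 546, 565, 656 and 249 of all 4651. As for exon features, these departures describe the labels, since pht1 was not lower on arrays labelled pht1∆ prp16DAmP.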

How the data were processed

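RNA from mutant and wild-type fission yeast was compared on 30 two-colour Agilent splicing arrays, 3 for each of 10 groups, with groups taken from the sample titles. The values deposited by the authors are log ratios of mutant Cy5 over wild-type Cy3 for each feature, with the dyes as per the labels, and are treated here as log2. No source used here states their base or their normalization. Scanner files were not used here. No value was missing, values ran from −5.53 to 4.38, and 0 columns were left unmapped. The number of arrays, not a read depth, limits the precision.

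Genes were named through RefSeq's annotation (ASM294v3): 4806 of 5084 matched by locus tag, 200 by synonym, and 78 did not match. The members and lists were chosen with earlier results of these data known. Named genes are those called with the largest change, up to 8 per direction for exon features, 6 for the index and 4 for junctions and contrasts. Where none was called, the largest is given.

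All features of a kind were fitted with limma 3.58.1 in R 4.3.3 (lmFit, eBayes), with 1 mean per group over all 30 arrays and no covariates. Group means were tested against 0, and contrasts against 0, two-sided, with Benjamini-Hochberg adjustment and a threshold of 0.05. Contrasts of intron and junction features were added after seeing the data. The scripts were tested on simulated data. Alternatives were arrays scaled to equal spread, arrays centred on exon features, the replicate number as a block, fits on the arrays compared alone, junction features as reference of the index, and each array left out in turn. The replicate numbers paired the arrays (every same-numbered correlation of deviations over 0.1) in swr1∆ and pht1∆ at 30 °C, with a lowest correlation of 0.532. They also did so between arrays labelled pht1∆ usp107DAmP and usp107DAmP (0.603), and between those labelled pht1∆ prp16DAmP and prp16DAmP at 16 °C (0.179).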

Additional observations from a re-analysis of the deposited data

Results flagged for a closer look

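For 10 results, a test of the difference itself found that groups differed. Their causes were not tested.

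The exon feature of mrpl32 differed by 0.67 and that of mrpl24 by 0.43 between pht1∆ at 16 °C and pht1∆ at 30 °C (limma, adjusted p = 0.0289 and 0.0280). The exon feature of mrpl50 differed by 0.64 between prp16DAmP at 37 °C and prp16DAmP at 16 °C (adjusted p = 0.0117). The exon feature of mrpl51 departed by 0.57 on arrays labelled pht1∆ prp16DAmP from the sum of pht1∆ and prp16DAmP at 16 °C (adjusted p = 0.0241). Each of these 4 was lost without at least 1 array, and mrpl24, mrpl32 and mrpl51 also with arrays scaled to equal spread.

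The splicing index of mrpl44 differed by 0.75 between pht1∆ at 16 °C and pht1∆ at 30 °C (adjusted p = 0.00162), and this call held without any 1 of the 6 arrays and under each alternative setting run.

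The intron feature of mrpl44 differed by 0.69 and that of mrpl27 by −0.50 between pht1∆ at 16 °C and pht1∆ at 30 °C (adjusted p = 0.000473 and 0.0321). On arrays labelled pht1∆ prp16DAmP, the intron feature of mrpl44 departed by −0.64 from the sum of pht1∆ and prp16DAmP at 16 °C, the junction of exons 2 and 3 of mrpl39 by 0.81 and the first junction of mrpl38 by −0.89 (adjusted p = 0.0113, 0.00772 and 0.0457). Those of mrpl44 and mrpl39 held without any 1 array and under each setting run, while those of mrpl27 and mrpl38 did not.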

How the results depend on the processing

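The limits are 3 arrays a group, no dye swap and 1 estimate of spread shared by groups that vary unequally. Of 71 exon calls against wild type, 17 held without any 1 array, 51 with arrays scaled to equal spread, 61 with arrays centred on exon features, 70 with the replicate block and 23 when each group's arrays were fitted alone, and 3 held under all. Of 25 index calls the counts were 7, 16, 25, 25 and 5, with 6 under junction features as reference and 2 under all. Of 26 junction calls they were 10, 20, 26, 25 and 11, with 8 under all. Of 15 intron calls they were 2, 9, 15, 15 and 1, with 1 under all. The causes were not tested.

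Without 1 array, the exon count ran from 1 to 10 on arrays labelled pht1∆ prp16DAmP, 3 to 6 in pht1∆ and 1 to 8 in prp16DAmP at 16 °C, 0 to 3 in swr1∆ at 30 °C, 10 to 25 on arrays labelled pht1∆ usp107DAmP, 8 to 9 in pht1∆ at 30 °C and 3 to 6 in usp107DAmP, and was 0 in the groups of 37 °C. In contrasts it was 0 to 2 for pht1∆ and for swr1∆ between temperatures, 0 to 1 for prp16DAmP between temperatures and for the departures of pht1∆ prp16DAmP and swr1∆ prp16DAmP, and 0 otherwise. The index count was 0 to 1, 2 to 4, 0 to 2, 0 to 2, 5 to 9, 2 to 2 and 1 to 5 in the 7 groups in the order above, 0 at 37 °C, 1 to 1 for pht1∆ between temperatures and 0 in the other contrasts. The junction count was 0 to 1, 4 to 5, 1 to 3, 1 to 2, 3 to 11, 4 to 5 and 0 to 1 in that order, and 0 at 37 °C. The intron count was 0 to 1, 1 to 2, 0 to 2, 1 to 3, 0 to 3, 0 to 5 and 0 to 2 in that order, and 0 at 37 °C.

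With arrays scaled to equal spread, the exon count was 13 on arrays labelled pht1∆ usp107DAmP, 5 in prp16DAmP at 16 °C, and 1, 3 and 2 at 37 °C in swr1∆ prp16DAmP, swr1∆ and prp16DAmP. It was 0 for pht1∆ and 2 for swr1∆ between temperatures, 0 for the departure of pht1∆ prp16DAmP and 1 for that of swr1∆ prp16DAmP. The scaled index count was 2 on arrays labelled pht1∆ prp16DAmP, 1 in prp16DAmP at 16 °C, 1 in swr1∆ at 37 °C, 5 on arrays labelled pht1∆ usp107DAmP and 0 in pht1∆ at 30 °C. The scaled junction count was 4 on arrays labelled pht1∆ usp107DAmP and 2 in prp16DAmP at 37 °C. The scaled intron count was 2 in swr1∆ at 37 °C, 0 on arrays labelled pht1∆ usp107DAmP and 1 in pht1∆ at 30 °C. Centred arrays gave 2 intron calls on arrays labelled pht1∆ prp16DAmP and 0 exon calls in swr1∆ at 30 °C.

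With only the arrays compared, the exon count was 3 in prp16DAmP at 37 °C and 5 at 16 °C, 1 in pht1∆ at 30 °C and 0 on arrays labelled pht1∆ usp107DAmP, in usp107DAmP and in swr1∆ at 30 °C. It was 5 for prp16DAmP and 0 for pht1∆ between temperatures. The index count was 2 on arrays labelled pht1∆ prp16DAmP, 1 on those labelled pht1∆ usp107DAmP and in swr1∆ at 37 °C, and 0 in prp16DAmP at 16 °C, swr1∆, pht1∆ and usp107DAmP at 30 °C. The junction count was 0 on arrays labelled pht1∆ prp16DAmP, pht1∆ usp107DAmP and usp107DAmP, 1 in each prp16DAmP group, and 3 in pht1∆ at 30 °C. The intron count was 1 in swr1∆ at 37 °C and in pht1∆ at 16 °C, and 0 in the other groups. With junction features as reference, the index count was 0 on arrays labelled pht1∆ prp16DAmP, 7 in pht1∆ and 1 in prp16DAmP at 16 °C, 0 in swr1∆ at 30 °C, 5 on arrays labelled pht1∆ usp107DAmP, 1 in usp107DAmP and 1 for the departure of pht1∆ prp16DAmP. Intron 2 of mrpl3 on arrays labelled pht1∆ usp107DAmP then turned to −0.0332 (adjusted p = 0.841).

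With the replicate block, 1 exon feature (mrpl37) was called between swr1∆ and pht1∆ at 30 °C, whose numbers pair the arrays, in place of 0. The junction departures on arrays labelled pht1∆ prp16DAmP gave 1 call in place of 2. Other counts of calls under the block stayed within 1.5 times. Contrasts of intron and junction features, and the alternatives for intron features, were chosen after seeing the data. The last junction of mrpl17 differed by −0.87 between prp16DAmP at 37 °C and at 16 °C, not called (adjusted p = 0.413). Without 1 array this ran from −1.44 to 0.0283, the highest without replicate 3 at 16 °C (adjusted p = 0.995).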
